A study of Mus musculus with 8 samples.

Results

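The cytosolic ribosomal protein genes were followed through a Zscan4 knockdown and a Zscan4c overexpression in J1 mouse embryonic stem (ES) cells. Genes were taken by name: every protein-coding gene whose symbol begins with Rpl or Rps and a number, or is Rplp0, Rplp1 or Rplp2, without pseudogene names and without the Rps6k kinases. The annotation held 85 such genes, and all 85 were measured, out of 17938 genes in the knockdown table and 18292 in the overexpression table. One of them, Rps19bp1, encodes a protein that binds Rps19 and is not itself part of the ribosome. It is reported on its own, which left 84 genes, called ribosomal protein genes below, 52 of the large subunit and 32 of the small subunit. Subunits were assigned by name. Whether each paralog, Rpl7l1 among them, is itself part of the ribosome was not checked.

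All 8 libraries came from J1 cells labelled wild type, in 4 groups of 2. The cells of every group were cultured with 15% fetal bovine serum and 10 ng/ml LIF. KD Zscan4 cells were transfected with a pSuper puro vector carrying a short hairpin RNA against Zscan4, and KD control cells carry the label random control. OE Zscan4 cells received the Zscan4c coding sequence in pCMV-tag2, a vector with a viral promoter, and OE control cells were the controls of that arm. Selection began 24 h after transfection with 1000 ng of plasmid, using 7 days of puromycin (2 µg/ml) for the hairpin vectors and 10 days of G418 (500 µg/ml) for the expression vectors. Clones grown from single cells were then picked, and the labels do not say whether the 2 libraries of a group came from 1 clone or from 2. The p-values below therefore measure only the spread between these libraries, which may be technical, and a difference between clones cannot be told apart from an effect of the plasmid.

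A ribosome joins a small subunit, which reads the message, to a large subunit, which forms the peptide bonds, and each subunit is an RNA core dressed with proteins that are needed in about equal numbers. Vertebrate ribosomal protein messages typically begin with a C followed by a run of pyrimidines, the terminal oligopyrimidine or TOP element, through which their translation answers to the mTOR pathway. Some of the proteins have paralogs encoded elsewhere in the genome, among them Rpl10l and Rpl39l, which are known for their roles in the male germline. Zscan4 marks a small, changing fraction of ES cells that pass through a state resembling the 2-cell embryo.

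The windows around the annotated starts are shown for some of the members that changed and for some paralog partners. They are shown because the TOP run is the feature that most of the family is known to share. The size of the change did not decide the choice, and Rpl37a, which rose in both arms, is not among them. Each window runs from 20 bases before the start through the first 15 transcribed bases on the gene's own strand (RefSeq, build GRCm38.p6), and capitals mark its longest unbroken run of C and T.
Rpl31 (chr1:39367831-39367865, plus strand): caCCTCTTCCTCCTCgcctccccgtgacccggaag
Rpl28 (chr7:4792945-4792979, plus strand): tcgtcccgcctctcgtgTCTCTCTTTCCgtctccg
Rplp2 (chr7:141447631-141447665, plus strand): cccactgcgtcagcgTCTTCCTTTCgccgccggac
Rpl22l1 (chr3:28805488-28805522, plus strand): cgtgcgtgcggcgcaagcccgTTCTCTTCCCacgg
Rpl26 (chr11:68901546-68901580, plus strand): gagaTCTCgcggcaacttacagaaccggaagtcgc
Rpl7l1 (chr17:46782642-46782676, minus strand): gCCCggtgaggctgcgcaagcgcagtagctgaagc
Rpl10 (chrX:74270796-74270830, plus strand): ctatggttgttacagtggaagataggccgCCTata
Rpl10l (chr12:66284387-66284421, minus strand): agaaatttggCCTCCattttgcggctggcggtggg
Rpl39 (chrX:37085208-37085242, minus strand): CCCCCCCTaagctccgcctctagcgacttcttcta
Rpl39l (chr16:10170208-10170242, plus strand): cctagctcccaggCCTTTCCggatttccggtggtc

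Rpl31, Rpl28, Rplp2 and Rpl22l1 have runs of at least 8 pyrimidines at or close to the start. The run of Rpl31 ends before the annotated start. The longest run of Rpl7l1 and of Rpl10 is 3 letters, and that of Rpl10l is 5. Members not shown had long and short runs too, such as Rps25 (12), Rps15a (10), Rpl37a, Rps16 and Rpl22 (5 each) and Rpl24 (2). A promoter was listed for 64 of the 84 genes. Of these, 29 (45.3%) had a run of at least 8 C or T letters within the window, against 16.6% of the 27025 genes of the table. The letters CTTCCG, searched on both strands of the 300 bases from 250 before to 50 after each start, were found in 42 of the 64 (65.6%) and in 18.8% of all genes of the table. Both are descriptions of the letters and show no bound site.

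The targeted genes followed the labels. The summed value of 6 Zscan4 rows was 2740 and 2539 in the KD control libraries and 80.2 and 115 in KD Zscan4, and it was 257 and 305 in the OE controls and 4276 and 3814 in OE Zscan4. Values are reads divided by 1 scaling factor per library, called normalised values below. Libraries held 17392177 to 22381633 reads in genes. At a false discovery rate of 0.05, 17.2% of all genes rose and 18.5% fell in the knockdown. For the overexpression these shares were 22.3% and 22.1%. Of 5 pluripotency markers (Pou5f1, Nanog, Sox2, Zfp42 and Esrrb), 3 rose in the knockdown, where their sums were 82351 and 83189 in the controls and 90405 and 87834 in KD Zscan4. All 5 rose in the overexpression, with sums of 66866 and 65686 against 99355 and 99341. Primitive endoderm markers moved with the groups too. In the knockdown 8 of 8 fell, with sums of 6009 and 5867 in the controls and 1100 and 1010 in KD Zscan4. In the overexpression 5 of the 7 measured fell, with sums of 1571 and 1493 against 923 and 885. The other 2 did not pass, and the highest log2 fold change was 1.02. Of the fibroblast markers, 2 of 6 rose in the knockdown, where the sums were 308 and 275 against 455 and 404. The other 4 did not pass, and the lowest log2 fold change was -0.98. In the overexpression 3 of 5 fibroblast markers fell, with sums of 832 and 844 against 363 and 335. The part of these cells in the results below was not tested, and in RNA from whole cultures fewer cells of a type and less RNA per cell cannot be told apart.

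Ribosomal protein messages took up between 7.69% and 9.87% of all gene reads. The share was 7.92% (95% Wilson interval 7.91 to 7.93) and 7.69% (7.68 to 7.70) in the KD controls and 9.13% (9.12 to 9.15) and 8.35% (8.34 to 8.36) in KD Zscan4. Both KD Zscan4 libraries thus lay above both controls, by 0.94 percentage points on average, with group means of 7.81% ± 0.17 and 8.74% ± 0.55 (SD, n = 2). In the overexpression arm the share was 9.87% (9.85 to 9.88) and 9.10% (9.08 to 9.11) in the controls and 9.43% (9.42 to 9.45) and 9.82% (9.81 to 9.83) in OE Zscan4, so the groups overlapped. These intervals cover counting error only, and they are far narrower than the gap between libraries of the same group.

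The family moved as a block between libraries of 1 group. Replicate 1 was above replicate 2 for 72 of 84 genes in the KD controls, 80 of 84 in KD Zscan4 and 82 of 84 in the OE controls, and for 13 of 84 in OE Zscan4. Of all genes with a mean value of at least 20, 47.1% to 56.3% were higher in replicate 1. The median gap was 0.18 on the log2 scale in KD Zscan4 and 0.18 in the OE controls. KD Zscan4 replicate 1 stood highest in its arm, with a median of 0.16 above the genes' mean over the 4 libraries, against -0.01 for KD Zscan4 replicate 2 and -0.05 and -0.12 for the controls. In the overexpression arm OE control replicate 2 stood lowest, at -0.19, against -0.01 for the other control and 0.06 and 0.14 for OE Zscan4. Large and small subunit genes shifted by nearly equal amounts in every library, their medians differing most in OE control replicate 1 (-0.02 and -0.003) and OE control replicate 2 (-0.18 and -0.20).

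**Figure D1:**
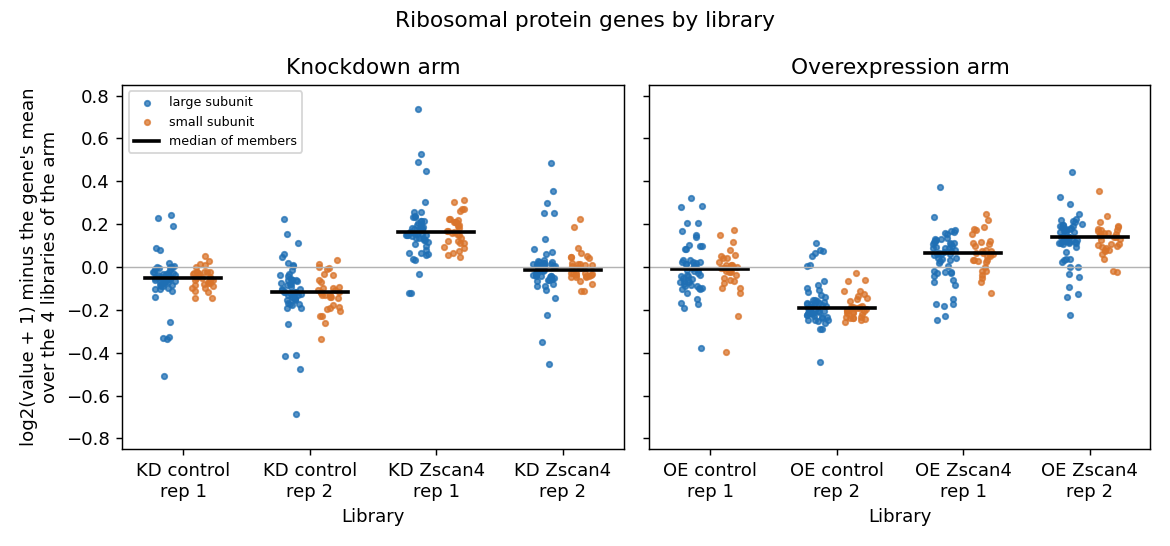
Each point is 1 of 84 ribosomal protein genes, plotted as log2(normalised value + 1) minus that gene's mean over the 4 libraries of its arm, with large subunit genes in blue, small subunit genes in orange and the median of all 84 as a black line. The medians run from -0.12 to 0.16 in the knockdown arm and from -0.19 to 0.14 in the overexpression arm, and libraries of 1 group differ by as much as 0.18.

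After the Zscan4 knockdown, 38 of the 84 ribosomal protein genes rose and 3 fell at a false discovery rate of 0.05, and 43 did not pass. Each gene was tested with limma-trend, a linear model on log2(normalised value + 1), with Benjamini-Hochberg adjustment over all genes of the table. Over all genes tested 35.7% were called, 17.2% as rises and 18.5% as falls, so rises made up a larger share of the family (45.2%) and falls a smaller one (3.6%) than in the table as a whole. The median log2 fold change was 0.17, a rise of 12.5%, where the median of all genes was 0.01. Both subunits were alike in this: 22 of 52 large subunit genes rose and 3 fell, with a median of 0.16, and 16 of 32 small subunit genes rose and none fell, with a median of 0.17. The libraries of the 2 groups did not overlap for 57 of the 84 genes (67.9%), against 67.8% of all genes.

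The size of the count rested on single libraries. KD Zscan4 replicate 1 lay above both controls for 79 of the 84 genes and replicate 2 for 53. Without KD Zscan4 replicate 2 the count of rises was 67, without KD Zscan4 replicate 1 it was 26, without KD control replicate 1 it was 24 and without KD control replicate 2 it was 10. The median log2 fold change was 0.07 without KD Zscan4 replicate 1 and 0.25 without KD Zscan4 replicate 2, and it stayed above 0 in each of the 4 cases. When an arm was left with 1 library of a group, that library was assumed to vary like the others.

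Apart from Rpl39l, the largest rises belonged to the 3 members on chromosome 1. Rpl31, a large subunit protein near the mouth of the exit tunnel, was at 7844 and 8018 in the KD controls and at 18599 and 13279 in KD Zscan4, a log2 fold change of 0.99 ± 0.11 (SE; adjusted p = 2.9e-05). Rpl7 was at 35957 and 33957 against 61700 and 55769, a change of 0.75 ± 0.06 (adjusted p = 1.9e-06). Rpl37a, a zinc-binding protein of the large subunit, was at 8659 and 8216 against 15325 and 13020, a change of 0.74 ± 0.07 (adjusted p = 6.1e-06). None of the 3 genes had overlapping groups. Chromosome 1 as a whole stood higher in these libraries, with a median log2 fold change of 0.56 over its 703 protein-coding genes with a mean value of at least 20. The genes within 5 Mb of Rpl31, Rpl7 and Rpl37a had medians of 0.59 (57 genes), 0.53 (22 genes) and 0.51 (53 genes). Away from chromosome 1, 35 of 81 members rose and 3 fell, with a median of 0.17.

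Rpl32, on chromosome 6, rose most among large subunit genes elsewhere in the genome that have no paralog listed. Its values were 10621 and 10561 in the controls and 14241 and 16209 in KD Zscan4, a log2 fold change of 0.52 ± 0.06 (adjusted p = 3.9e-05), while its 70 neighbours within 5 Mb had a median of -0.03. Rpl32 differed from most of the family in that KD Zscan4 replicate 2 was the higher of the pair. Among small subunit genes Rps16 led, from 15785 and 14894 to 21532 and 18265, a log2 fold change of 0.37 ± 0.07 (adjusted p = 0.0013). Rps15a followed at 0.36 ± 0.07, from 12134 and 10812 to 15643 and 13795 (adjusted p = 0.0015), and Rps25, which is known for its part in translation from internal ribosome entry sites, at 0.32 ± 0.07, from 11334 and 10271 to 14541 and 12433 (adjusted p = 0.0045). Rps25 was no longer called with DESeq2 (adjusted p = 0.061) or without KD control replicate 2 (adjusted p = 0.06).

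Members that fell in the knockdown were Rpl10l, Rpl7l1 and Rpl28, the first and second of them paralogs that are described further on. Rpl28 was at 17683 and 17473 in the controls and 16364 and 15516 in KD Zscan4, a log2 fold change of -0.14 ± 0.05 (adjusted p = 0.04). The groups did not overlap, but the call was lost without either control, without KD Zscan4 replicate 2 and with upper-quartile scaling (adjusted p = 0.065). The proteins of the stalk, which recruits translation factors to the large subunit, did not pass: the log2 fold changes were 0.16 for Rplp0, 0.09 for Rplp1 and -0.11 for Rplp2. Rplp2 was at 15064 and 14354 in the controls and 14452 and 12813 in KD Zscan4, with overlapping groups.

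**Figure D2:**
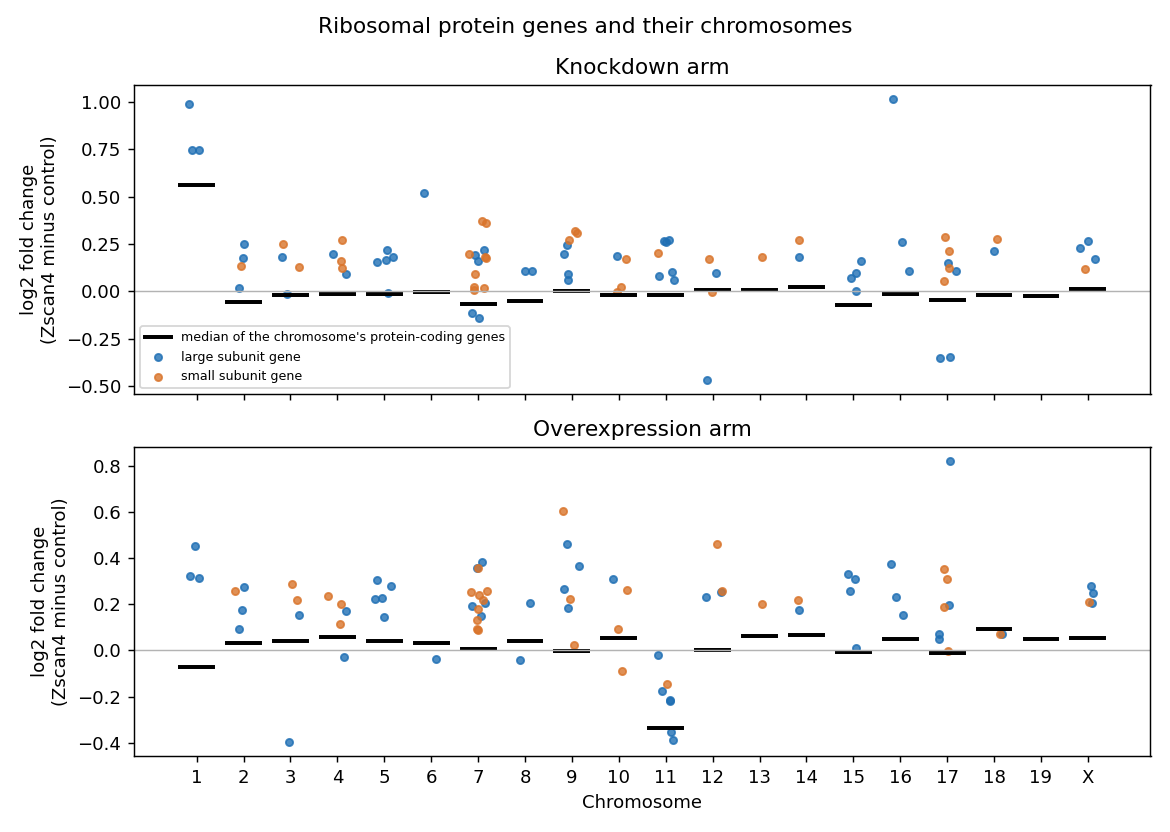
Each point is a ribosomal protein gene placed at its chromosome, with its log2 fold change (Zscan4 minus control) on the vertical axis, and black bars give the median of the protein-coding genes of that chromosome with a mean value of at least 20. The 3 members on chromosome 1 lie at 0.74, 0.75 and 0.99 in the knockdown, above the raised bar at 0.56. All 7 members on chromosome 11 lie below 0 in the overexpression, where the bar is at -0.34.

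In the overexpression, 45 of the 84 genes rose, 5 fell and 34 did not pass, where 44.3% of all genes were called, 22.3% as rises and 22.1% as falls. The median log2 fold change was 0.21, a rise of 15.5%. Of the large subunit genes 26 of 52 rose and 5 fell, with a median of 0.21, and of the small subunit genes 19 of 32 rose and none fell, with a median of 0.22. Groups did not overlap for 65 genes, which is 77.4%, against 71.2% of all genes. Both the count of rises and the median moved with single libraries. Without OE control replicate 1 there were 66 rises and a median of 0.29, and without OE control replicate 2 there were 30 rises, 9 falls and a median of 0.11. Without OE Zscan4 replicate 1 the count of rises was 16 with a median of 0.26, and without OE Zscan4 replicate 2 it was 11 with a median of 0.17.

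These rises were of the size seen in other abundant genes. The 598 other genes with a mean value of at least 5000 had a median log2 fold change of 0.24 in the overexpression, and 61.0% of them rose, against a median of 0.21 for the 71 members at that level. When libraries were scaled so that abundant genes outside the family stayed level, an alternative added after the values were seen, 4 members rose and 22 fell, so that rises made up 15.4% of the calls in place of 90%, and the family's median was -0.04. This scaling moved the median of all genes by -0.24 from its value of -0.002. In the knockdown the same step changed little: the 624 other abundant genes had a median of -0.01, and 44 members rose and 3 fell after it. Relative to other genes of like abundance, the family's median was therefore higher in the knockdown and close to theirs in the overexpression.

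**Figure D3:**
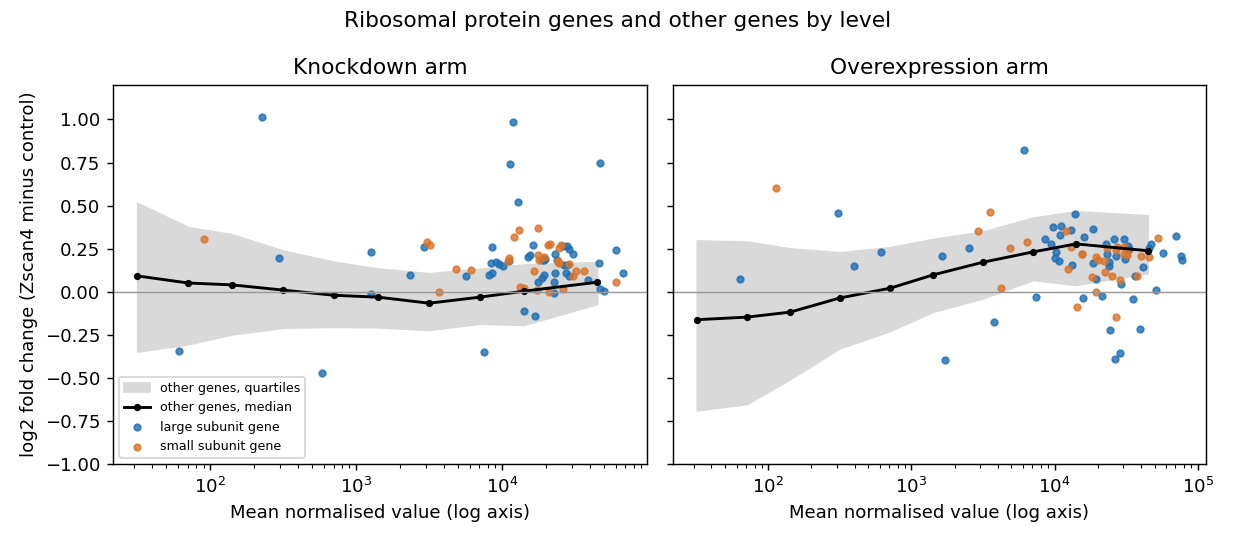
Points are ribosomal protein genes, with the mean normalised value of the 4 libraries on a log axis and the log2 fold change (Zscan4 minus control) on the vertical axis, and the line and grey band give the median and quartiles of all other genes in bins of level. In the overexpression the line climbs from -0.16 for genes at 20 to 50 to between 0.23 and 0.28 above 5000 and passes through the points, whereas in the knockdown it lies between -0.03 and 0.06 above 5000 and most points are higher.

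The falls in the overexpression lay on chromosome 11, apart from Rpl22l1. All 7 members there had a negative log2 fold change, and 4 fell. Rpl26, a protein at the tunnel exit, was at 32933 and 27595 in the OE controls and 22190 and 23881 in OE Zscan4, a change of -0.39 ± 0.09 (SE; adjusted p = 0.0012). Rpl23a, where the signal recognition particle docks, was at 34477 and 29964 against 24282 and 26032, a change of -0.35 ± 0.08 (adjusted p = 0.0018). Rpl23 (-0.22) and Rpl38 (-0.17) also fell, and Rpl19 (-0.21), Rps27a (-0.14), which encodes ubiquitin fused to a small subunit protein, and Rpl27 (-0.02) did not pass. Without OE Zscan4 replicate 1 the adjusted p was 0.076 for Rpl26, 0.11 for Rpl23a and 0.41 for Rpl23, and for Rpl23 it was 0.11 without OE Zscan4 replicate 2. The chromosome's 1087 genes had a median of -0.34, and the genes within 5 Mb of Rpl26 one of -0.46 (142 genes), so Rpl26 lay no lower than its neighbours. Away from chromosome 11, 45 of 77 members rose and 1 fell, with a median of 0.22.

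Outside the paralogs, the largest rises in the overexpression that passed were Rps29, Rpl37a, Rplp2 and Rpl24. Beside them stood Rpl29 and the retrocopy Rps27rt, which had low values. Rps29, a zinc-binding protein of the small subunit, was at 2966 and 2960 in the OE controls and 4051 and 4105 in OE Zscan4, a log2 fold change of 0.46 ± 0.06 (adjusted p = 1.8e-05). Rpl37a was at 12032 and 11469 against 16135 and 15983, a change of 0.45 ± 0.07 (adjusted p = 3.7e-05). Rplp2 was at 9707 and 9435 against 12297 and 12643, a change of 0.38 ± 0.07 (adjusted p = 0.00015), and its stalk partners rose as well, Rplp0 by 0.30 and Rplp1 by 0.27, the latter no longer called without either OE Zscan4 library. Rpl24 was at 9132 and 7938 against 10584 and 11532, a change of 0.38 ± 0.08 (adjusted p = 0.00065), which did not pass with scaling on abundant genes (0.13, adjusted p = 0.095). No library of a control group reached the lowest OE Zscan4 library for any of these 4 genes. Of the 50-base windows of their transcripts, 35.8% (Rps29), 38.5% (Rpl37a), 65.1% (Rplp2) and 81.7% (Rpl24) also occurred in transcripts of other genes. Reads could have been lost or split there. Rpl29 was low, at 269 and 247 against 332 and 380 (0.46 ± 0.11, adjusted p = 0.0029), and 78.5% of the 50-base windows of its transcript also occurred in transcripts of other genes, so reads could have been lost or split there. Its call was lost without OE Zscan4 replicate 2 (adjusted p = 0.070). The same holds for Rps27rt, at 83.9 and 95.8 against 132 and 142 (0.60 ± 0.16, adjusted p = 0.0063), with 91.1% of windows shared, whose call was lost without OE Zscan4 replicate 2 (adjusted p = 0.061) and with DESeq2 (adjusted p = 0.062).

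Both arms were then compared gene by gene, and 18 genes rose in each. That is 47.4% of the knockdown rises and 40% of the overexpression rises. Both percentages were below the family's own shares of rises, 53.6% of the 84 in the overexpression and 45.2% in the knockdown. Over all genes measured in both tables, 676 rose in each, of 3069 knockdown rises and 4024 overexpression rises. The 18 genes are 21.4% of the 84, where 3.88% of all genes rose in both, and 15 of the 84 were called in neither, where 38.6% of all genes were. Whether the overlap of the ribosomal protein genes differs from that of other genes was not tested. Across the 84 genes, log2 fold changes in the 2 arms showed little relation (Pearson's r = -0.04, Spearman's rho = -0.14, given as a description, since genes of 1 library share its scaling). A test of the difference between the 2 effects, over 17409 genes measured in both tables, called 27 of the 84: 14 were higher in the overexpression than in the knockdown, against 22.9% of all genes, and 13 were lower, against 21.8%. Of the 27, 3 lay on chromosome 1 and 6 on chromosome 11. Without KD control replicate 2 the count was 16, and without OE Zscan4 replicate 1 it was 17.

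Opposite calls were made for Rpl7l1, Rpl28, Rpl26 and Rpl38. Rpl28 fell by 0.14 in the knockdown and rose by 0.36 ± 0.07 in the overexpression, from 11728 and 11221 to 14589 and 14825, and the effects differed by 0.50 ± 0.08 (adjusted p = 5.8e-05). Rplp2 was next to it in pattern, at -0.11 in the knockdown, which did not pass, and 0.38 in the overexpression, a difference of 0.49 ± 0.09 (adjusted p = 0.00022). Rpl26 rose in the knockdown by 0.27 ± 0.07, from 15080 and 14405 to 19378 and 16373, a call that was lost with DESeq2 and without KD control replicate 2. Rpl38, needed for the translation of particular Hox messages in the embryo, rose by 0.26 in the knockdown, a call lost with DESeq2 (adjusted p = 0.31), without KD control replicate 2 and without KD Zscan4 replicate 1. Its fall in the overexpression was lost with DESeq2 (adjusted p = 0.053) and without either OE Zscan4 library.

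**Figure D4:**
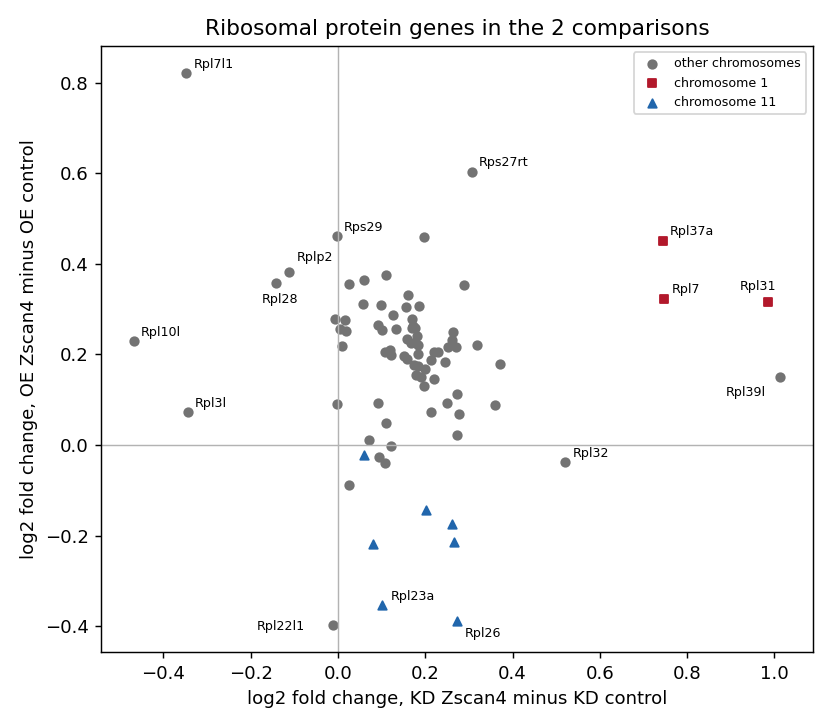
Each point is a ribosomal protein gene, with its log2 fold change in the knockdown on the horizontal axis and in the overexpression on the vertical axis, and genes of chromosomes 1 and 11 have their own symbols. Most genes sit above 0 on both axes, Rpl7l1 is at -0.35 and 0.82, Rpl39l is at 1.01 and 0.15, and the 7 genes of chromosome 11 lie below 0 on the vertical axis.

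The paralogs held the largest single changes. Rpl7l1, a relative of Rpl7 whose coding sequence is 52.7% identical to it, was at 8551 and 8329 in the KD controls and 6871 and 6399 in KD Zscan4, a log2 fold change of -0.35 ± 0.05 (adjusted p = 0.00028). In the overexpression it went from 4525 and 4325 to 7628 and 8003, a change of 0.82 ± 0.07 (adjusted p = 3.3e-08), the largest rise among the 84. The effects differed by 1.17 ± 0.08 (adjusted p = 1.2e-08), also the largest difference in the family. Groups did not overlap in either arm, and both calls were kept in every alternative run. Its genomic neighbours within 5 Mb, 79 genes in each arm, had medians of -0.03 and -0.04. Per 100 Rpl7 reads there were 23.8 and 24.5 Rpl7l1 reads in the KD controls and 11.1 and 11.5 in KD Zscan4, a ratio that also holds the rise of Rpl7 on chromosome 1, and 6.83 and 7.40 in the OE controls and 10.2 and 9.92 in OE Zscan4. Of the 50-base windows, 53.3% of those of Rpl7 and 12.2% of those of Rpl7l1 also occurred in transcripts of other genes.

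Rpl39l, which can take the place of Rpl39 in the exit tunnel, was at 170 and 133 in the KD controls and 309 and 300 in KD Zscan4, a log2 fold change of 1.01 ± 0.13 (adjusted p = 0.0001). Rpl39 itself went from 1208 and 1113 to 1459 and 1265, a change of 0.23 ± 0.08 (adjusted p = 0.036), which was lost with DESeq2, without KD control replicate 2 and without KD Zscan4 replicate 1. Rpl39l reads per 100 Rpl39 reads therefore went from 14.1 and 11.9 to 21.1 and 23.7. In the overexpression arm there were 23.6 and 25.8 in the controls and 24.7 and 22.9 in OE Zscan4, with overlapping groups, and Rpl39l itself did not pass (0.15). The 2 effects on Rpl39l differed by -0.86 ± 0.16 (adjusted p = 0.00046). Of the 153 coding bases of Rpl39 and Rpl39l, 130 are identical, but no 50-base window of the Rpl39l transcript occurred in another gene's transcripts. Of the windows of the Rpl39 transcript 16.5% did.

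Rpl10l, an intronless copy that can replace Rpl10, moved the other way in the knockdown. It was at 682 and 674 in the KD controls and 531 and 452 in KD Zscan4, a log2 fold change of -0.47 ± 0.09 (adjusted p = 0.0014), while Rpl10 rose from 23630 and 23850 to 30545 and 26594, by 0.26 ± 0.06 (adjusted p = 0.0059; 0.053 without KD control replicate 1). There were 2.89 and 2.83 Rpl10l reads per 100 Rpl10 reads in the controls and 1.74 and 1.70 in KD Zscan4. In the overexpression the ratio was 1.94 and 1.82 against 1.91 and 1.80, and Rpl10l, at 620 and 516 against 667 and 660, did not pass (0.23, adjusted p = 0.059). The effects in the 2 arms differed by 0.70 ± 0.14 (adjusted p = 0.00058). The coding sequences are 84.7% identical, and 7.6% of the 50-base windows of the Rpl10l transcript occurred elsewhere. Of the windows of the Rpl10 transcript 92.1% did, so Rpl10 reads could have been lost or split, which would shift the ratio.

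Rpl22l1, whose protein shares its place in the ribosome with Rpl22, was the 1 member off chromosome 11 that fell in the overexpression. It was at 2078 and 1840 in the OE controls and 1512 and 1458 in OE Zscan4, a log2 fold change of -0.40 ± 0.07 (adjusted p = 0.00034), and there were 24.4 and 28.1 Rpl22l1 reads per 100 Rpl22 reads in the controls and 20.9 and 19.7 in OE Zscan4. In the knockdown Rpl22l1 did not pass, at 1232 and 1308 against 1314 and 1207 (-0.01 ± 0.07). Rpl22 did not pass in either arm, at 0.09 and -0.03. Of the 50-base windows, 65.6% of those of Rpl22l1 and 24.5% of those of Rpl22 also occurred in transcripts of other genes. Reads could have been lost or split there.

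The remaining pairs differed among themselves. Rpl36al and Rpl36a did not pass in the knockdown, at 0.10 and 0.17, and both rose in the overexpression, by 0.25 and 0.28. Each of these 2 calls was lost in 2 of the alternatives, over which the lowest changes were 0.01 and 0.03. There were 26.1 to 28.7 Rpl36al reads per 100 Rpl36a reads in all 8 libraries. Rps27l, a p53 target, rose in the knockdown by 0.27, a call lost with DESeq2 (adjusted p = 0.31), without KD control replicate 2 and without KD Zscan4 replicate 1, and was at 0.02 in the overexpression, where Rps27 rose by 0.29, a call lost without OE Zscan4 replicate 1 (adjusted p = 0.052). Rps27l reads per 100 Rps27 reads were 48.4 and 51.5 in the KD controls and 57.9 and 52.6 in KD Zscan4, and 72.7 and 71.9 in the OE controls and 57.2 and 63.2 in OE Zscan4, with no overlap in either arm. Rpl3l, the form typical of striated muscle, was near the bottom of the range, at 70.8 and 65.1 against 65.0 and 43.7 in the knockdown and 69.6 and 53.6 against 56.4 and 73.3 in the overexpression, and passed in neither. Rps4l is annotated as a pseudogene and is no member. It changed by -0.16 in the knockdown, where its adjusted p was 0.02 and the call was lost without either control, and by 0.52 in the overexpression, beside changes of 0.12 and 0.21 in its partner Rps4x. Its reads per 100 Rps4x reads were 35.8 and 36.2 in the KD controls and lower, at 29.0 and 30.2, in KD Zscan4. They were 17.1 and 17.9 in the OE controls and higher in both OE Zscan4 libraries. None of these ratios was tested. Of the 50-base windows of the canonical partners, 98.6% (Rps27), 85.5% (Rpl36a) and 72.2% (Rps4x) also occurred in transcripts of other genes. Partner reads could have been lost or split there, which would shift the ratios.

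**Figure D5:**
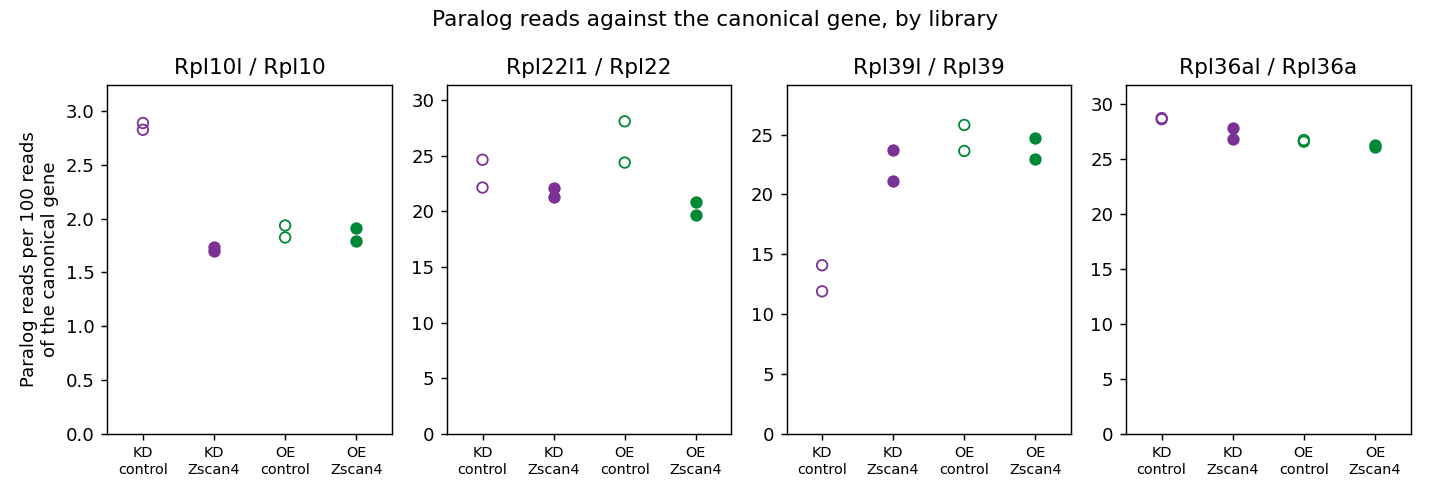
Reads of a paralog per 100 reads of its canonical partner are plotted for each library, with open circles for controls, filled circles for Zscan4 libraries and vertical axes from 0. Rpl10l falls from 2.89 and 2.83 to 1.74 and 1.70 and Rpl39l climbs from 14.1 and 11.9 to 21.1 and 23.7 in the knockdown, Rpl22l1 falls in the overexpression, and Rpl36al stays between 26.1 and 28.7.

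Levels per length spanned a wide range within the family. Divided by the length of 1 transcript per gene, the KD control values had a median of 20693 per kb for large and 22510 per kb for small subunit genes, with quartiles of 13315 and 30150 and of 15150 and 30963, so that the subunits overlapped almost fully. Rpl13 was highest, at 82428 per kb, followed by Rps2 and Rpl8. The lowest were Rpl3l at 49.4, Rps27rt at 217 and Rpl39l at 275 per kb, and in the OE controls Rpl3l at 44.8, Rps27rt at 240 and Rpl29 at 443 per kb. Across members, the log2 fold change had a Spearman's rho of -0.20 (knockdown) and -0.22 (overexpression) with this level in the arm's controls. Off chromosome 1 and off chromosome 11, respectively, it was -0.20 and -0.14. The control values enter both quantities, so a negative rho is partly built in. With the GC content of the transcript, rho was -0.29 and 0.09 (84 genes, as descriptions). Members with a pyrimidine run of at least 8 letters had a median change of 0.18 in the knockdown and those without one 0.14 (28 and 34 genes off chromosome 1), and in the overexpression 0.20 and 0.25 (27 and 32 genes off chromosome 11).

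Among ribosomal protein genes that the name pattern misses, Rpsa, a small subunit protein also known as the laminin receptor, rose by 0.19 and Fau by 0.16 in the knockdown. Rack1, a signalling scaffold on the small subunit, was at 0.09 and did not pass. In the overexpression Fau rose by 0.26, Rpsa was at 0.18, and Rack1, which lies on chromosome 11, was at -0.13. The calls of Rpsa and Fau in the knockdown were lost without either control and without KD Zscan4 replicate 1, and that of Fau in the overexpression without either OE Zscan4 library.

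Genes that build ribosomes were counted in the same way, where 17.2% of all genes rose and 18.5% fell in the knockdown. Of RNA polymerase I genes, which transcribe ribosomal RNA, 3 of 14 rose and 5 fell; of small subunit processing factors 8 of 46 rose and 9 fell; and of large subunit processing factors 13 of 46 rose and 6 fell. In these 3 lists 9 of the 10 genes on chromosome 1 rose, among them Ddx18 (0.78), Wdr12 (0.75) and Wdr75 (0.69), and elsewhere 15 rose and 20 fell of 96, close to the shares of all genes. The difference between these lists and the ribosomal proteins was not tested. Rrn3, which makes RNA polymerase I competent to initiate, fell by 0.61 ± 0.05, from 5373 and 5748 to 3587 and 3702. In the overexpression, where 22.3% of all genes rose and 22.1% fell, 12 of 14 RNA polymerase I genes rose and none fell, 35 of 46 small subunit factors rose and 2 fell, and 39 of 46 large subunit factors rose and 2 fell. Their medians were 0.48, 0.41 and 0.42, beside 0.21 for the ribosomal proteins, a difference that was not tested. The share of rises in this arm climbed with level. It was 45.4% of the 3850 other genes with a mean value of at least 1000 and 61.0% of the 598 with at least 5000. These lists were not matched for level. Nifk rose by 0.93, Nop56, a core protein of the box C/D particles, by 0.92, from 7956 and 7334 to 14070 and 14753, and Rrn3 by 0.42.

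Other genes tied to the family were counted against the same shares, 17.2% rises and 18.5% falls in the knockdown and 22.3% and 22.1% in the overexpression. Of translation factors with TOP messages, 7 of 19 rose and 3 fell in the knockdown (median 0.06) and 12 of 19 rose and 1 fell in the overexpression (median 0.21), where 61.0% of the 598 other genes with a mean value of at least 5000 rose. Naca and Btf3, the subunits of the nascent chain complex at the tunnel exit, rose in both, by 0.29 and 0.30 in the knockdown and by 0.35 and 0.28 in the overexpression, with Naca not called in the knockdown without KD control replicate 2 (adjusted p = 0.065). Chaperones that carry single ribosomal proteins gave 1 rise and 2 falls of 7 in the knockdown and 3 rises of 7 in the overexpression, with Grwd1, the chaperone of Rpl3, at -0.24 and 0.64, its fall lost without KD control replicate 2 (adjusted p = 0.054). Of mTOR and TOP message regulators, 2 of 18 rose and 5 fell in the knockdown and 6 rose and 3 fell in the overexpression. Larp1, the protein that binds TOP messages, fell in both arms, from 5398 and 5345 to 3897 and 4059 in the knockdown (-0.43) and from 4211 and 4425 to 3623 and 3585 in the overexpression (-0.26), where its chromosome 11 had a median of -0.34. Mitochondrial ribosomal protein genes, 78 in number, gave 20 rises and 7 falls in the knockdown with a median of 0.07, and 31 rises and 13 falls in the overexpression with a median of 0.15. These 78 genes were not matched for level either.

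Rps19bp1, the gene set apart at the start, was at 1070 and 1098 in the KD controls and 985 and 981 in KD Zscan4 (-0.14, adjusted p = 0.10). In the overexpression it rose from 814 and 705 to 1044 and 1044, by 0.46 ± 0.08 (adjusted p = 0.00024), and the effects in the 2 arms differed by 0.60 ± 0.10 (adjusted p = 0.00021). Ribosomal protein pseudogenes took 0.19% to 0.24% of gene reads, or 2.3 to 2.5 reads per 100 reads of the functional genes in each library.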

How the data were processed

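mRNA of 8 libraries was sequenced, and libraries were grouped by their titles. Per the submitters' processing notes, cutadapt, HISAT2, featureCounts and DESeq2 were used with mm10. The authors deposited signal values per gene: tested on the files, 100% of them are whole reads (tolerance 0.01) divided by 1 factor per library, equal to DESeq2's median-of-ratios factors. Handling of strand and of reads with several matches is not given in the sources used here, so overlapping genes and near copies are uncertain. Depth was 17392177 to 22381633 gene reads per library, and replicates differed by more than counting noise (chi-square per degree of freedom 2.94 to 4.96).

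Genes were matched by Ensembl identifier to GENCODE M21 (17923 of 17938 and 18272 of 18292). Within each table, which was normalised separately, 2 against 2 libraries were compared two-sided with limma-trend 3.58.1 in R 4.3.3 on log2(value + 1), on which fold changes of low genes are understated, with no further filter on low values and Benjamini-Hochberg adjustment over all genes at 0.05. Each adjusted p is from limma unless another tool is named. Alternatives used edgeR 4.0.16 and DESeq2 1.42.0 on recovered reads, other scalings, filters and left-out libraries. The procedure was tested on simulated data.

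Members and lists were chosen with earlier results of these data known. Named by rule were, per arm, the 8 largest rises and falls that passed, paralog pairs, genes outside the name pattern, members of shifted chromosomes, extremes of level per kb, up to 3 genes per list, opposite calls and the 5 largest differences between arms. Other names were chosen after their values were seen. A few counted genes are not reported here by name. Coding identity came from global alignment.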

Additional observations from a re-analysis of the deposited data

Results flagged for a closer look

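Effects that differed between the 2 arms were looked for with a direct test, and 27 of the 84 ribosomal protein genes and Rps19bp1 passed it. Of the 84, 14 were higher in the overexpression and 13 lower. Over all 17409 genes tested, 22.9% were higher and 21.8% lower, so the family was not called more often than genes in general. Values are the log2 fold change in the overexpression minus that in the knockdown.

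Among the paralogs, Rpl7l1 was at 1.17, Rpl10l at 0.70, Rpl22l1 at -0.39 and Rpl39l at -0.86. Rps19bp1 was at 0.60. Of the large subunit genes outside these, Rpl28 was at 0.50, Rplp2 at 0.49, Rpl14 at 0.31, Rpl9 at 0.29, Rpl24 at 0.27, Rpl7a at 0.26 and Rpl8 at 0.25. Of the small subunit genes, Rps29 was at 0.46, Rps13 at 0.33, Rps2 at 0.25 and Rps9 at 0.23.

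Lower effects in the overexpression were found for all 3 members of chromosome 1, Rpl31 (-0.67), Rpl7 (-0.42) and Rpl37a (-0.29), whose chromosome had a median of 0.56 in the knockdown. They were found for 6 members of chromosome 11, Rpl26 (-0.66), Rpl19 (-0.48), Rpl23a (-0.45), Rpl38 (-0.43), Rps27a (-0.35) and Rpl23 (-0.30), whose chromosome had a median of -0.34 in the overexpression. On other chromosomes Rpl32 was at -0.56 and Rps15a at -0.27.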

How the results depend on the processing

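With 1 library left out, knockdown rises ranged from 10 to 67 and falls from 2 to 5, with a median of the large subunit genes of 0.059 to 0.24. Overexpression rises ranged from 11 to 66 and falls from 1 to 9. Genes with a different effect between arms ranged from 16 to 28. Scaling on abundant genes, chosen after the data were seen, gave 4 rises and 22 falls in the overexpression, with medians of -0.038 for large and -0.027 for small subunit genes, and it reversed Rpl3 (-0.23), Rpl39 (-0.038), Rps27l (-0.22) and Rps4x (-0.034) there. Overexpression Rpl22 was at 0.16 without OE control replicate 1. Without the genes of chromosomes 1, 11 and Y there was 1 fall in the overexpression. The cause of these shifts was not tested, apart from the fewer members in the last case (74 of 84). With the replicate number as a block, 47 genes rose and 2 fell in the knockdown, 36 rose and 3 fell in the overexpression and 21 differed between arms. Across all genes with a mean value of at least 20, same-numbered libraries did not deviate together (correlations of -0.06 and -0.04), so the numbers were not taken as pairs. Within the family, replicate 1 was the higher for 72 of 84 genes in the KD controls and 80 in KD Zscan4. It was the higher for 82 in the OE controls and 13 in OE Zscan4. Among single genes named, 101 values fell short of the threshold that the main test passed, 42 newly passed it and 1993 kept their side. With 2 libraries a group, small changes stay uncertain at any depth reached here.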
